A study of Homo sapiens with 12 samples.

Results

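Long consensus BG4 regions at promoters were merged stretches of 500 bp or more beside an annotated transcription start site (TSS). They were built from BG4 peaks that overlapped a peak in both other biological replicates. The length is that of the merged stretch, not of the bases common to all 3 lists. Nuclear peaks that overlapped a peak in both other lists by 1 bp or more were merged into 6063 consensus regions. Of these, 4278 touched a window of 400 bp centred on a TSS, and 630 of the 4278 (14.7%) were 500 bp or longer. These 630 regions touched 842 of the 58381 TSS windows. The regions set beside them were 1989 promoter regions of 300 bp to under 500 bp and 1659 promoter regions under 300 bp. The members were chosen by measured values, the peak calls themselves, so their number, length and peak content are given as a description with no test.

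HEK293 is an established human embryonic kidney cell line, and all samples came from these cells, with no change of genotype and no drug named in the labels. Chromatin was fixed with formaldehyde, sheared, treated with RNase A and precipitated with BG4, an antibody pulled down on anti-FLAG beads. For each of 3 biological replicates, labelled BioRep1 to BioRep3, 3 technical ChIP libraries were made, plus 1 input that skipped the antibody step. The 3 inputs were not analysed here, and the design holds a single condition.

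G-quadruplexes are stacked structures that single-stranded DNA with several runs of guanine can fold into. BG4 is an antibody fragment that binds folded G-quadruplexes with little regard to their exact sequence. In chromatin, BG4 signal is known to concentrate at nucleosome-depleted promoters of transcribed genes, where G-rich sequence is common.

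Promoter DNA beneath 7 of the regions is shown to let a reader see the G-runs that BG4 peaks are usually discussed with. Each stretch lies before the gene's RefSeq start and inside the long region, is written 5′ to 3′ on the strand of the gene, and comes from the RefSeq promoter table of GRCh38.p14. Capitals mark a motif of 4 runs of 3 or more G separated by 1 to 7 bases of any kind; on the opposite strand the same motif reads as runs of C. The first of them, chr1:235504453-235504702 on the minus strand, lies before B3GALNT2, a glycosyltransferase gene. It is followed by chr6:166999147-166999396 on the plus strand before CEP43, which encodes a centrosomal protein, and by chrX:154379045-154379294 on the plus strand before EMD, the gene of emerin, a protein of the nuclear envelope. Next come chr1:228165554-228165803 on the plus strand before IBA57, an iron-sulphur cluster assembly gene, and chr17:3636251-3636458 on the plus strand before CTNS, the lysosomal cystine transporter gene. The CTNS stretch reaches to the start of SHPK on the other strand, so both genes share it. The last 2 are chr9:93095967-93096216 on the plus strand before CARD19, a gene for a CARD domain protein, and chr9:79571715-79571964 on the plus strand before TLE4, a Groucho-family corepressor gene.
B3GALNT2: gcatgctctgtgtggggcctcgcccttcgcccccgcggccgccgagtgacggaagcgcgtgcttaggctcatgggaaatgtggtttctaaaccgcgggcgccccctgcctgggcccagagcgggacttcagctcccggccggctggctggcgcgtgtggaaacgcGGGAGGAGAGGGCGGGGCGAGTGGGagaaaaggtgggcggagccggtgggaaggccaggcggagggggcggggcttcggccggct
CEP43: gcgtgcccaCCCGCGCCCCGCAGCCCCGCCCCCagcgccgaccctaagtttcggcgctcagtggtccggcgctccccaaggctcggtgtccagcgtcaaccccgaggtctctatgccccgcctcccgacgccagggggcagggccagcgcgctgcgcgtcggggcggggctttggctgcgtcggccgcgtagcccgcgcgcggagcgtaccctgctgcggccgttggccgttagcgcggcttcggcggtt
EMD: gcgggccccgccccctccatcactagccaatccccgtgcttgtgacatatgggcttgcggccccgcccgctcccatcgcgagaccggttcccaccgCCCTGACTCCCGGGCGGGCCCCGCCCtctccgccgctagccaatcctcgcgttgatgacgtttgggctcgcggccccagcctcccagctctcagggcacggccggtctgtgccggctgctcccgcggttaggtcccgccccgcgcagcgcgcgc
IBA57: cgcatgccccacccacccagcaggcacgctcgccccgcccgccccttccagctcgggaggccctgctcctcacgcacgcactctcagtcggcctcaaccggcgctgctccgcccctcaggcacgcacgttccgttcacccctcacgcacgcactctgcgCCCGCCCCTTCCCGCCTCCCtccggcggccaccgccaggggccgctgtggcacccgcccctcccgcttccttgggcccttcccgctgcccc
CTNS: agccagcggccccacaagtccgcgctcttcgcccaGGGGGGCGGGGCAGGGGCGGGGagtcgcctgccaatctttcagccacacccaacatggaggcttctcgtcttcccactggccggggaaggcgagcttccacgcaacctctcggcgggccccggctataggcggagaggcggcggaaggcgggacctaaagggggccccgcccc
CARD19: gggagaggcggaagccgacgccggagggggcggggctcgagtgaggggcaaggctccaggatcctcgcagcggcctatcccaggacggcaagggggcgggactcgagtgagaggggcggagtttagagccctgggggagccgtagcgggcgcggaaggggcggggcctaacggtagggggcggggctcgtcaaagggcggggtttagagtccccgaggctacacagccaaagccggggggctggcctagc
TLE4: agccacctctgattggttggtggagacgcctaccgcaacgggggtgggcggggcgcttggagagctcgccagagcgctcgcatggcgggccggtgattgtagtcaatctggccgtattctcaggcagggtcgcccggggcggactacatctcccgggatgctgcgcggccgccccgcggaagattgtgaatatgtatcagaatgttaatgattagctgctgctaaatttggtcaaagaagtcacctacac
The B3GALNT2 and CTNS stretches held the motif on the strand of the gene, and the CEP43, EMD and IBA57 stretches held it on the opposite strand. The CARD19 and TLE4 stretches held no match to the motif on either strand. TLE4 was added to the printed sequences after its values had been seen. The other stretches were chosen by taking first those with the most motifs, so their share with a motif is not that of the class. No match says only that these letters are not in this window.

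The long regions had a median length of 578.5 bp (quartiles 534 and 666.75 bp), and the longest reached 1241 bp. Peak counts and peak lengths within regions, here and below, are of shared peaks, those that overlapped a peak in both other lists. Other peaks inside a region were not counted. In 398 of the 630 regions (63.2%, 95% Wilson interval 59.3 to 66.9) each replicate's list held a single shared peak. In 231 regions (36.7%, 33.0 to 40.5) at least 1 list held 2 or more separate peaks, beside 17.7% (16.1 to 19.4) of the regions of 300 bp to under 500 bp and 6.21% (5.14 to 7.47) of those under 300 bp. A region that joins several peaks is longer for that reason, so the order of these shares follows in part from the length rule. Summed over the 3 lists, 116 long regions held 4 peaks, 67 held 5, 40 held 6, 6 held 7 and 2 held 8. The remaining region held a single shared peak, because the peaks it overlapped in the other lists did not overlap each other. A region of this kind was thus mostly 1 broad shared peak per replicate, with a minority assembled from neighbouring peaks.

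The 3 lists contributed unequally to length. Shared peaks of BioRep1 covered a median of 395.5 bp of a long region and those of BioRep3 547.5 bp, with BioRep2 between them. BioRep1 had split peaks in 205 of the 630 regions, BioRep2 in 92 and BioRep3 in 52. A single shared peak of 500 bp or more was present in 111 regions for BioRep1, 292 for BioRep2 and 470 for BioRep3. In 90 regions all 3 lists held such a peak, and in 86 regions no list did. Bases covered by all 3 lists made up a median of 367 bp (63.4% of the region), and this core reached 500 bp in 104 regions. BioRep1 also had the shallowest library, with 372030 reads in windows against 551802 to 846114 in the other 8 libraries, and the part of depth in these differences was not tested.

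**Figure D1:**
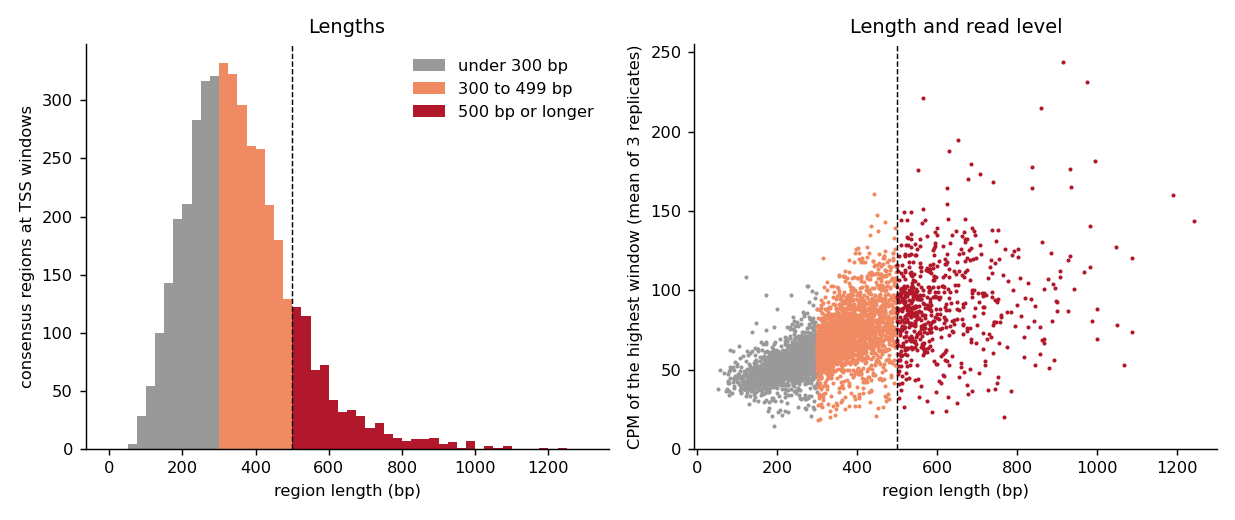
Left, histogram of region length (bp) for the 4278 consensus regions at TSS windows, with the length classes in colour; right, each region's length against the read level of its highest TSS window (CPM, mean of 3 biological replicates). The dashed line marks 500 bp; the 630 long regions form the right-hand tail, and their highest windows spread from 20.2 to 244 CPM.

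At the threshold the regions changed gradually. The 5 regions just inside, each 500 bp long, lay at UVRAG, an autophagy gene, ATP6V0D1, a proton pump subunit gene, KLHL26, RELL1 and HSPA1B, an inducible heat shock protein gene. Their highest windows held between 65.1 and 86.1 CPM, the read count scaled to the library's reads in all windows. The 5 just outside lay at ENSG00000259952.1, PRADC1, MSMO1, a sterol synthesis gene, and CHD7, a chromatin remodeller gene, each 1 bp short of the minimum, and at TMEM41B with 498 bp. The highest windows of these held 59.8 to 115 CPM, so the levels on both sides of the threshold overlapped.

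Most long regions touched a single TSS window. The count was 433 with 1 window, 182 with 2 and 15 with 3, so that 31.3% (27.8 to 34.99) touched 2 or more, beside 26.3% (24.4 to 28.3) of the regions of 300 bp to under 500 bp and 22.7% (20.8 to 24.8) of those under 300 bp. A longer region has more bases with which to touch a window, and since every region here touches at least 1, windows per kilobase fall with length by construction. Within 1 kb of the midpoint, a distance that does not grow with the region, the mean number of TSSs was 1.48, 1.41 and 1.39 in order of falling length. TSSs on both strands lay within that distance in 38.7% (35.01 to 42.6), 34.5% (32.4 to 36.6) and 31.9% (29.7 to 34.2). Neighbouring classes had overlapping intervals on this share, and the difference between them was not tested.

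Both strands were represented by touched windows in 179 long regions (28.4%, 25.0 to 32.1). In 121 of them the TSSs pointed away from each other, which is the divergent arrangement of a shared promoter. Divergent regions made up 19.2% (16.3 to 22.5) of the long class, 18.4% (16.8 to 20.2) of the regions of 300 bp to under 500 bp and 14.6% (13.0 to 16.4) of those under 300 bp. The divergent TSSs under long regions stood a median of 230 bp apart (quartiles 120 and 338 bp), against 154 bp and 100.5 bp in the shorter classes. A region had to touch both windows to count, so the distance it could hold was limited by its length. The order of these distances is therefore a description. In the other 58 (9.21%, 7.19 to 11.7) the annotated TSSs faced each other, beside 5.48% (4.56 to 6.57) and 5.003% (4.05 to 6.16) of the shorter classes. Both arrangements were read from annotated positions and strands, and transcription was not measured. A longer region also has more bases with which to touch windows of both strands, and the part of length in these shares was not tested.

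Where a region touched 2 windows, the windows usually shared bases and so shared reads. In 31 of the 182 regions with 2 windows the pair shared no base, and these TSSs stood a median of 508 bp apart. The fuller window held a median of 1.73 times the CPM of the other, up to 4.41 times, and 11 of the 31 pairs were within 1.5 times of each other. CEP170 and SDCCAG8, a divergent pair of centrosomal genes 686 bp apart, were among the even pairs, with 115 ± 11.7 and 115 ± 15.7 CPM (SD, n = 3 biological replicates). MYL11, a fast-muscle myosin light chain gene, held 128 ± 16.0 CPM, while the window of ENSG00000169221.13 on the other strand, 670 bp away, held 61.8 ± 3.36 CPM.

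Relative to the TSS, the regions extended further upstream than downstream. Among the 308 long regions whose single window belonged to a protein-coding gene, 289 covered the TSS itself (93.8%, 90.6 to 96.0). Their edges lay at medians of -394.5 bp and +186 bp, and the midpoint was upstream of the TSS in 220 of the 308 (71.4%). The regions of 300 bp to under 500 bp (n = 1161) ran from -249 to +123 bp, and those under 300 bp (n = 1004) from -145 to +79 bp. At 400 bp upstream, 49.7% of the long regions still covered the position, against 7.75% and 0.199% of the shorter classes. At 400 bp downstream the shares were 13.3%, 2.41% and 0.598%. Only regions that touched a window within 200 bp of a TSS were eligible, which centres every class near the TSS. A shorter region can then reach less far from the TSS. The order of the classes in edges and coverage thus follows largely from the length rule and is a description.

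**Figure D2:**
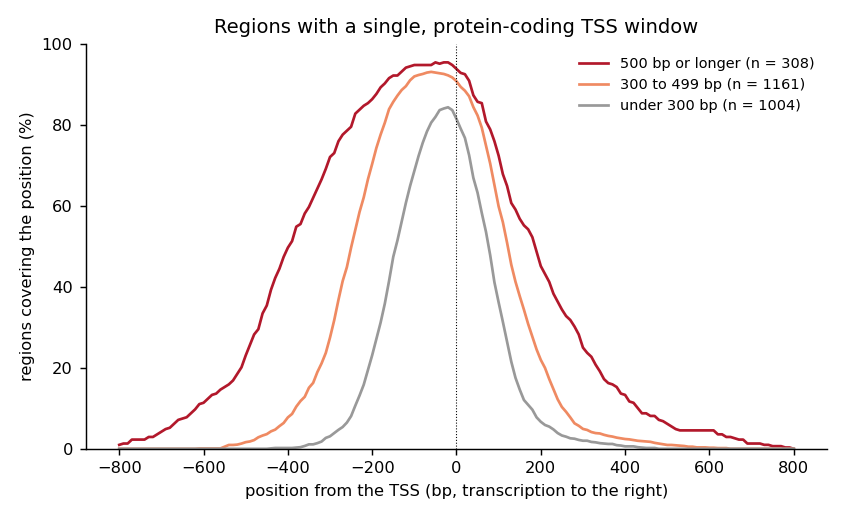
Share of regions (%) covering each position from 800 bp before to 800 bp after the TSS, with transcription to the right, for regions whose single window belongs to a protein-coding gene. Lines stand for the 3 length classes; the long regions (n = 308) extend to the left, with 49.7% still covering -400 bp against 13.3% at +400 bp.

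Genes were named by position, from RefSeq 5′ ends within 200 bp of the window's TSS on the same strand. Of the 842 windows, 515 (61.2%) took a protein-coding name, 83 a lncRNA, 5 a microRNA, 7 a pseudogene, 1 a snoRNA and 1 another kind, and 230 stayed without a name. The 515 protein-coding windows were 3.52% of the 14643 so named in the whole table. A protein-coding window was present in 476 of the 630 regions (75.6%, 72.1 to 78.7), and 2 or more in 39 (6.19%, 4.56 to 8.35). The most common contents were a lone protein-coding window (308 regions), a protein-coding and an unnamed window (72), a protein-coding and a lncRNA window (45) and 2 protein-coding windows (35). Where genes share a promoter, a positional name may belong to the neighbour.

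The longest region, chr16:30657875-30659115 at FBRS, the fibrosin gene, measured 1241 bp and was built from 2, 2 and 1 peaks in BioRep1, BioRep2 and BioRep3. Its window held 121, 139 and 170 CPM in the 3 replicates, a mean of 143 ± 24.6 CPM. The next, chr16:29805434-29806622 at MAZ, measured 1189 bp. MAZ encodes a zinc finger protein that itself binds G-rich DNA. Each list held a single peak there and 1045 bp were common to all 3, so this region was continuous in every replicate. The MAZ window held 146, 168 and 166 CPM in BioRep1, BioRep2 and BioRep3, and its 9 libraries ranged from 145 to 177 CPM with a median of 163 CPM. Both genes stood well above coding windows that no peak touched, whose median was 10.7 ± 0.439 CPM. Peaks and counts come from the same reads, so this order was set by the choice and is a description.

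Among the other 13 of the 15 longest, several were assembled from fragments. HCFC1, a transcriptional coregulator gene, shared a region of 1088 bp with ENSG00000177854.7; it held 4, 1 and 2 peaks and a core of 496 bp in 4 pieces. SPAG7 had a region of 1049 bp with 2, 3 and 3 peaks, the largest sum together with EGR1. PPAT, which encodes the first committed enzyme of purine synthesis, shared 999 bp with ENSG00000128050.8, with 3, 2 and 1 peaks. LCOR, a nuclear receptor corepressor gene, had 988 bp with 2, 3 and 1 peaks. ENSG00000177042.14 (1086 bp), MYL11 (1047 bp), the lncRNA gene RENO1 (999 bp), B3GALNT2 (995 bp), CEP170 with SDCCAG8 (982 bp) and TLE4 (975 bp) had at least 2 peaks in 2 or more lists. ENSG00000125505.16 with ENSG00000170892.10 (983 bp, core 866 bp) and CARD19 with LOC101927993 (966 bp, core 765 bp) had 1 peak in every list. At H3-3A, which encodes the replication-independent histone H3.3, the region of 1066 bp started beyond the TSS and overlapped only the edge of the window, which held 51.9 ± 2.89 CPM.

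**Figure D3:**
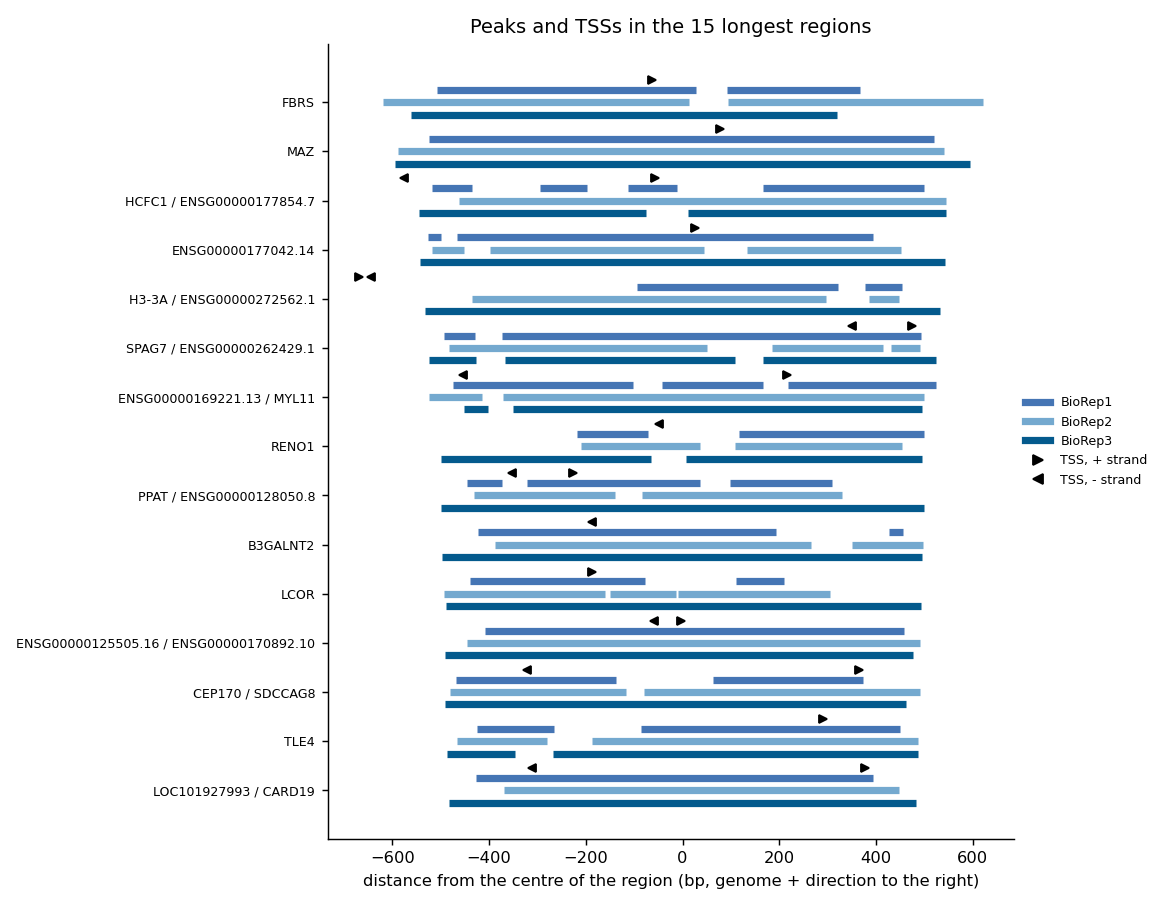
Shared peaks of each replicate (bars) and annotated TSSs (triangles, pointing along transcription) in the 15 longest regions, by distance from the region's centre (bp). MAZ, ENSG00000125505.16 with ENSG00000170892.10 and CARD19 with LOC101927993 show 1 bar per replicate; the other 12 show a gap in at least 1 list, and the TSSs of HCFC1 and H3-3A lie outside their regions.

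Levels differed among these 15. The highest window of the HCFC1 region, that of ENSG00000177854.7, held 73.7 ± 2.85 CPM, the HCFC1 window itself 49.0 ± 5.91 CPM and the H3-3A window 51.9 ± 2.89 CPM, while TLE4 held 231 ± 22.7 CPM. The TSSs of HCFC1 and H3-3A lay outside their regions, and the part of this in their levels was not tested. Across all 4278 promoter regions, length and the CPM of the highest window had a Spearman coefficient of 0.696, and within the 630 long regions it was 0.152. The points come from the same libraries, and peaks and windows were read from the same reads, so these coefficients are a description.

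Regions with 3 windows lay where several annotated starts stood close together. At ZNF503, a zinc finger gene on chromosome 10, the region of 693 bp touched the windows of ZNF503 (83.6 ± 2.08 CPM), its antisense lncRNA ZNF503-AS2 (49.0 ± 6.74 CPM) and ENSG00000270087.5 (31.6 ± 2.59 CPM), and the 3 levels did not overlap between replicates. At SHPK and CTNS, which encode a sedoheptulose kinase and the cystine transporter, the levels were 77.2 ± 7.09 and 89.3 ± 15.8 CPM and overlapped. TXNL4A, a spliceosome gene, and RBFA, a mitochondrial ribosome factor gene, held 80.4 ± 22.1 and 90.0 ± 11.03 CPM in a region of 669 bp. PARP2, a DNA repair enzyme gene, shared 539 bp with RPPH1, the RNA subunit of RNase P, at 61.5 ± 6.14 and 88.7 ± 5.78 CPM. The other 6 of the 10 regions first in order of windows, then length, lay at TMEM256 (685 bp), SAMD4B (669 bp), CEP43 (626 bp), EDRF1 (593 bp), CALM3, a calmodulin gene (560 bp), and the lncRNA gene ZFAS1 (539 bp).

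EGR1, an immediate early transcription factor gene, shared the highest sum of peaks, 8, with SPAG7. Its region of 844 bp held 3, 3 and 2 peaks, with 219 bp common to all lists in 5 pieces, and its window held 57.2, 55.9 and 44.6 CPM in BioRep1, BioRep2 and BioRep3. CTCF, which encodes the insulator protein, shared a region of 941 bp with CTCF-DT on the other strand, with 3, 2 and 2 peaks and 92.0 ± 16.0 CPM in the CTCF window.

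The level of a region was taken as the CPM of its highest window. Over the 630 long regions its median was 82.1, 90.9 and 96.3 CPM in BioRep1, BioRep2 and BioRep3, a mean of 89.8 ± 7.17 CPM (SD, n = 3). The regions of 300 bp to under 500 bp had 66.5, 72.5 and 75.8 CPM (71.6 ± 4.69), and those under 300 bp 51.2, 52.2 and 53.6 CPM (52.3 ± 1.21). In each replicate the order was the same, and the ratio of the long class to the middle class was 1.25 ± 0.0185 and to the shortest class 1.71 ± 0.100. Against protein-coding windows without a peak the ratio was 8.38 ± 0.993. Within the long class the middle 50% of regions ranged from 74.1 to 108 CPM, so the classes overlapped region by region. Peaks and counts come from the same reads and peak calling depends on read density, so the order of the classes is a description.

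Between replicates, a long region's level had a median coefficient of variation of 9.82%, taken over the replicates' means of technical libraries. Between single technical libraries of 1 replicate it was 9.76%. A mean of several libraries carries less technical spread than a single library, so these values are not like quantities. Their closeness does not show that replicates differed no more than technical libraries. The lowest of the 9 libraries had a median of 30 reads in the highest window. Single-library values of this size carry an appreciable counting error.

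The level was also read in a replicate that had no part in choosing the regions. With the lists of BioRep2 and BioRep3 alone, 629 regions at TSS windows were 500 bp or longer, and their median in BioRep1 was 81.1 CPM against 52.2 CPM for 5326 shorter ones. With BioRep2 held out the medians were 91.3 CPM (517 regions) and 61.6 CPM, and with BioRep3 held out 104 CPM (357 regions) and 65.0 CPM. The long regions were therefore higher in 3 of 3 held-out replicates, by 1.55, 1.48 and 1.60 times. The held-out list had a peak in 99.4% (98.4 to 99.8) of the long regions for BioRep1, against 68.6% (67.3 to 69.8) of the shorter ones. For BioRep2 the shares were 100% (99.3 to 100) and 96.0% (95.3 to 96.5), and for BioRep3 100% (98.9 to 100) and 98.2% (97.7 to 98.5). With 3 biological replicates a two-sided exact permutation test cannot give a p below 0.25, so no p is given. The windows are 400 bp wide, so a shorter region may fill less of its window. A longer region also has more bases with which to overlap a peak of the held-out list. Leaving out a replicate removes neither effect, and the part of length in these differences was not tested.

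**Figure D4:**
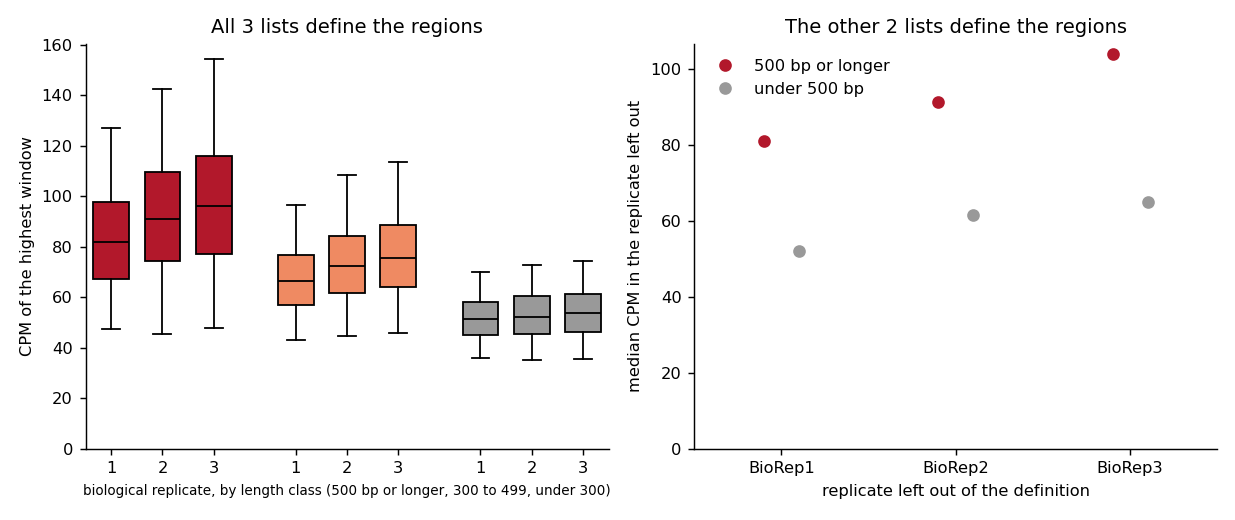
Left, CPM of the highest window per region in each biological replicate for the 3 length classes (line, median; box, quartiles; whiskers, 5th to 95th percentile over regions); right, median CPM in the replicate left out when the lists of the other replicates define the regions. Long regions lie highest in each replicate, with medians of 82.1, 90.9 and 96.3 CPM on the left and 81.1, 91.3 and 104 CPM on the right.

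The 10 highest long regions were chosen and ordered by their lowest library of the 9, a choice that favours windows with little spread. First was ENSG00000186056.9 at chr1:30717936-30718849, 914 bp long with 895 bp common to the 3 lists. Its window held 250, 234 and 247 CPM in the 3 replicates, 219 to 260 CPM over the 9 libraries with a median of 244 CPM, from 89 to 185 reads each. The nearest RefSeq 5′ end within 1000 bp of it was that of the lncRNA MATN1-AS1. TLE4, whose promoter stretch is printed above, held 206, 238 and 250 CPM, with 196, 234 and 280 CPM as the lowest, middle and highest library.

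The third, ENSG00000261455.1 at chr7:152463459-152464317, held 215 ± 19.3 CPM, and DESI2, a desumoylating peptidase gene, held 221 ± 27.7 CPM in a region of only 565 bp. For DESI2 the 3 BioRep1 libraries lay below the other 6, with a replicate mean of 189 CPM against 235 and 239 CPM. PCDH9, a protocadherin gene, held 195 ± 14.2 CPM, the window named LOC124903762 held 188 ± 9.93 CPM, and B3GALNT2 held 181 ± 4.86 CPM. B3GALNT2 had 176, 182 and 186 CPM in the 3 replicates, and 164 to 208 CPM over the 9 libraries with a median of 173 CPM. IBA57 shared its region with IBA57-DT, at 164 ± 8.19 and 177 ± 14.0 CPM. GUK1, the guanylate kinase gene, and EMD closed the 10 with 179 ± 7.58 and 178 ± 12.1 CPM. From the fifth to the tenth place the ranges over libraries overlapped.

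**Figure D5:**
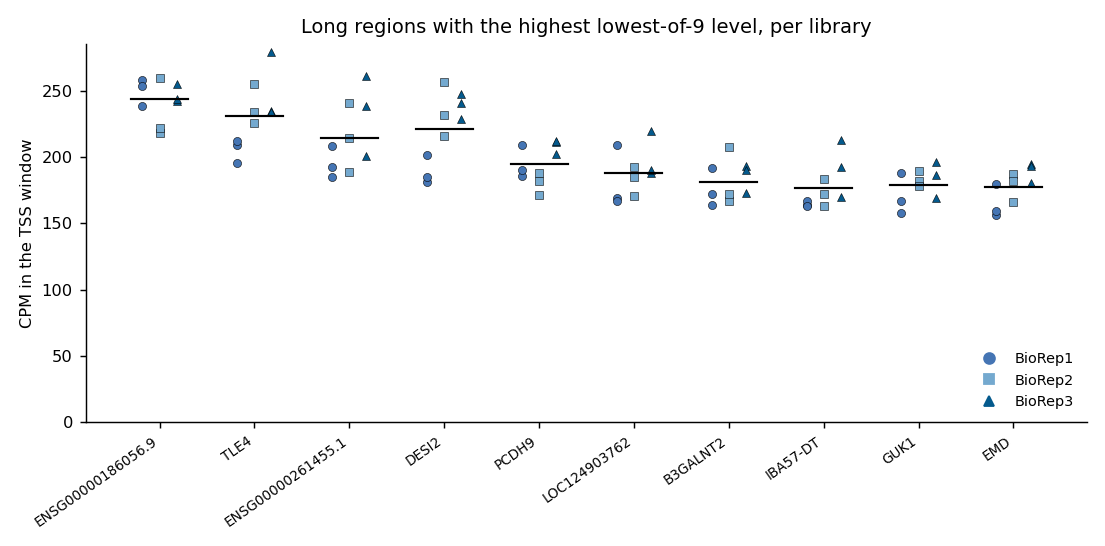
CPM in the highest window of the 10 long regions with the highest lowest-of-9 value, with a point for each of the 9 libraries by biological replicate and a line at the mean of the 3 biological replicates. ENSG00000186056.9 spans 219 to 260 CPM, and from PCDH9 to EMD the ranges overlap.

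With all 9 libraries and the filter on low counts, no member window passed a test of difference between the biological replicates. edgeR's quasi-likelihood test with Benjamini-Hochberg adjustment at 0.05 called 0 of the 842 member windows over the 3 replicates, beside a background of 0% of the 17499 windows tested, and 0 in each of the 3 contrasts. At an unadjusted p under 0.05 it had 135 of the 842 and 1379 of the 17499, and DESeq2's likelihood ratio test called 0, with 97 members and 807 of 56196 windows at an unadjusted p under 0.05. The p-values measure only the spread between technical libraries, and the labels do not say whether the biological replicates were separate cultures. Without the filter on low counts edgeR tested 56196 windows, the 842 members among them. It called 25 of the 56196 over the 3 replicates, and 8 of the 842 members were among these. Between BioRep3 and BioRep1 it called 28 of the 56196, with 10 of the 842 members among them.

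Member windows nonetheless sat higher in BioRep2 and BioRep3 than in BioRep1. The median log2 difference over the 842 was 0.09 for BioRep2 over BioRep1 (582 windows higher), 0.15 for BioRep3 over BioRep1 (659 higher) and 0.05 for BioRep3 over BioRep2 (542 higher). The medians of all windows tested were 0.00, so those windows split about evenly between higher and lower. A rise was not particular to the long regions. Promoter regions of 300 bp to under 500 bp had median levels of 66.5, 72.5 and 75.8 CPM in BioRep1, BioRep2 and BioRep3. Those under 300 bp had 51.2, 52.2 and 53.6 CPM. Without the filter the 3 median log2 differences of the members were 0.15, 0.26 and 0.11, and by DESeq2's Wald test 0.14, 0.25 and 0.10, in the same order. The replicate with the highest members, BioRep3, was also the one whose shared peaks covered the most bases of the long regions. The part of this coverage in these differences was not tested. The lowest adjusted p among members was that of ETFDH, an electron transfer flavoprotein dehydrogenase gene, chosen here after its values were seen. Its window held 67.9, 108 and 119 CPM in BioRep1, BioRep2 and BioRep3, with 48.9 to 139 CPM over the 9 libraries. The log2 difference of BioRep3 over BioRep1 was 0.74 with an adjusted p of 0.0593 (edgeR's quasi-likelihood test), which did not pass. C4orf46, whose window overlaps that of ETFDH on the other strand, held 60.7, 96.5 and 106 CPM.

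The gene lists had few members at long regions, and differences from all coding windows were not tested. Of all 14643 named protein-coding windows, 3.52% lay at a long region and 3737 (25.5%) at a consensus region of any length. Beside these, 4 of 20 chromatin regulators lay at long regions and 11 at any consensus region: CTCF, the deacetylase gene HDAC1 (121 ± 4.93 CPM), the histone methyltransferase gene KMT2A (46.0 ± 3.58 CPM) and the demethylase gene KDM2A (95.5 ± 14.8 CPM). Their share of 20.0% had an interval of 8.07 to 41.6%. The regions of KDM2A and KMT2A, 501 and 512 bp long, were close to the threshold, and CHD7 of the same list missed it by 1 bp. Of 72 RAB and ARF family GTPases, which direct vesicle traffic, 7 lay at long regions (9.72%, 4.79 to 18.7), among them ARL3 (124 ± 14.4 CPM), RAB4B (97.4 ± 11.96 CPM) and RAB1A (79.1 ± 4.64 CPM), and 33 (45.8%) lay at a consensus region of any length.

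Among 18 immediate early and stress genes there were 3, EGR1, JUND (84.1 ± 8.84 CPM) and the growth arrest gene GADD45A, which held 149, 153 and 161 CPM in the 3 replicates. The share of this list was 16.7% (5.84 to 39.2), and 8 of the 18 (44.4%) lay at a consensus region of any length. Among 18 heat shock and chaperone genes there were also 3 (16.7%, 5.84 to 39.2), HSPE1 (60.7 ± 5.95 CPM), HSPA9 (41.3 ± 3.45 CPM) and HSPA1B (67.1 ± 2.75 CPM). Of these 18 genes, 12 (66.7%) lay at a consensus region of any length. HSPA1B has a near-identical copy, HSPA1A, and the split of reads between them is uncertain. Cell cycle genes gave 2 of 19 (10.5%, 2.94 to 31.4), cyclin E1 (CCNE1, 115 ± 11.3 CPM) and the mitotic inhibitor kinase gene WEE1 (97.8 ± 17.5 CPM). At a consensus region of any length lay 10 of the 19 (52.6%). Of 11 Notch pathway and Groucho genes, TLE4 and HEY1, a Notch target gene with 99.6 ± 14.8 CPM in a region of 932 bp, were the 2 at any consensus region (18.2%, 5.14 to 47.7). With names taken within 1000 bp, 4 of 14 lay at long regions, with NOTCH1 and TLE1 added, and 5 at any consensus region.

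DNA replication genes had 13 of 24 members (54.2%) at a consensus region and 1 (4.17%, 0.739 to 20.2) at a long one, the origin recognition subunit gene ORC6 (49.0 ± 5.90 CPM in 548 bp). Cytosolic ribosomal protein genes had 26 of 57 (45.6%) at a consensus region and 0 at a long one, a share that counting error allows to reach 6.31%. With names taken within 1000 bp, 2 of 77 (RPL18 and RPLP2) lay at long regions. Zinc finger genes with ZNF symbols had 78 of 381 (20.5%) at a consensus region and 15 at a long one (3.94%, 2.40 to 6.39), close to the share of all coding windows. The longest regions of the 15 were at ZNF703 (98.4 ± 6.20 CPM), ZNF664 (94.1 ± 11.5 CPM) and ZNF503. Of 14 genes known from textbooks for G-quadruplex promoters, 3 (21.4%) lay at a consensus region and 0 at a long one, also with names taken within 1000 bp.

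Promoter sequence, which the choice of regions did not use, was compared over RefSeq promoters of 250 bases before to 50 bases after the start. For 422 of the 515 coding windows at long regions (81.9%) such a stretch of the same gene touched the window. The motif described above was present on either strand in 186 of the 422 (44.1%, 39.4 to 48.8), in 38.4% (35.9 to 40.8) of the promoters at regions of 300 bp to under 500 bp, in 36.6% (33.9 to 39.4) of those at regions under 300 bp, and in 30.4% of all 22199 protein-coding promoters of the table. It stood on the strand of the gene in 22.3% and on the opposite strand in 24.9% of the long class. Promoters with 2 or more motifs made up 17.1% (13.8 to 20.9), 12.5% (10.9 to 14.3), 10.5% (8.92 to 12.4) and 9.80% in the same order. In more than 50% of the promoters at long regions, CARD19 and TLE4 among them, this window held no match.

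Base composition also differed between these sets. The median GC content was 69.3%, 68.7%, 67.3% and 62.3% in the same order, and the observed over expected ratio of CpG was 0.895, 0.889, 0.886 and 0.737. Among promoters whose GC content lay between the quartiles of the long class (64.8% and 74.7%), the motif was present in 47.2% (40.6 to 53.9) at long regions, 40.9% (37.5 to 44.4) and 38.7% (34.7 to 42.9) at the shorter classes and 45.5% (44.3 to 46.7) of all such promoters of the table. Within this GC range the share at long regions was above that of both shorter classes, with intervals that overlapped both, while the share of all promoters of the table lay inside the interval of the long class.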

How the data were processed

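BG4 ChIP-seq reads of 9 HEK293 libraries were compared, 3 technical libraries for each of 3 biological replicates. As deposited by the authors, the coverage files hold raw read counts per window of 400 bp around annotated TSSs, with no scaling for depth or input, and the peak files hold coordinates in 1 list per biological replicate with no score. Per the submitters' processing notes, MACS2, bedtools, BWA, Picard and cutadapt were used with hg38. Not given in the sources used here were versions, the peak threshold, how technical libraries were joined and whether duplicates were counted.

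Shared peaks were merged as the report states, and counts were scaled to CPM, averaged over technical libraries and given as mean ± SD over biological replicates. Windows held 372030 to 846114 reads per library, and 5.15 to 9.97% of windows were empty. Wilson intervals (95%) cover counting error only. Windows were tested with edgeR's quasi-likelihood test (TMM, filterByExpr, robust fit, Benjamini-Hochberg), with a common dispersion of 0.0011. The fit was also run on simulated counts with a larger dispersion than this, which does not show its power on these data.

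The files carry Ensembl IDs only. Names came by position from RefSeq (GRCh38.p14) for 36790 windows, 612 of the 842 members among them. Promoter stretches were joined to windows where they touched; this replaced a 200 bp limit on the distance between starts once that limit was seen to match under 80% of the member windows. Promoters at windows without a peak still fell under 80%, so that check is void and not given. The promoter table holds no chromosome 8 entries.

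The members and gene lists were chosen with earlier results of these data known. Named regions were the 15 longest, the 10 with most windows, the 10 highest by their lowest library, the 5 with most peaks, the 5 on each side of the length limit and up to 3 genes per list; a rule by motif count chose the promoter stretches, of which 6 are printed beside TLE4. Alternatives covered the overlap, length and peak rules, scaling, DESeq2, no filter, a block by technical number, motif loops, naming distance and each library or replicate left out. Added after seeing the data were DESeq2's Wald test, a local background and the GC-matched promoters. Python 3.11.15, numpy 2.4.6, pandas 2.3.3, scipy 1.17.1, matplotlib 3.10.9, R 4.3.3, edgeR 4.0.16 and DESeq2 1.42.0 were used.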

Additional observations from a re-analysis of the deposited data

How the results depend on the processing

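The number of long regions depended on how they were defined. It was 630 as reported, 403 with an overlap of 50% of both peaks, 104 by the length common to all 3 lists, 1407 at a minimum of 400 bp, 79 at 750 bp and 7 at 1000 bp. With 1 list left out it ran from 357 (without BioRep3) to 629 (without BioRep1), and long regions built from 2 lists overlapped 603, 512 and 355 of the 630 without BioRep1, BioRep2 and BioRep3. The share with 2 or more windows was 43.0% at 750 bp and 57.1% at 1000 bp, of 7 regions. The median level was 98.5 CPM with the 50% overlap, 108 CPM by common length and 118 CPM at 1000 bp. Loops of up to 12 bases raised the share of promoters with a motif to 66.6%, and the strand of the gene alone gave 22.3%.

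Without the filter edgeR called 25 windows over the 3 replicates, 6 for BioRep2 over BioRep1 and 28 for BioRep3 over BioRep1; the cause was not tested. Leaving out single libraries gave 0 to 1, 0 to 1 and 0 to 2 calls in the same order. Members were among them: without the first BioRep1 library, 1 of 1 over the 3 replicates and 2 of 2 for BioRep3 over BioRep1, and without any single BioRep2 library, 1 of 2 for BioRep3 over BioRep1. Technical numbers did not pair the libraries: same-number correlations of deviations ran from -0.0146 to 0.0263. With that number as a replicate block, calls were 0 over the 3 replicates, 1 for BioRep2 over BioRep1, 1 for BioRep3 over BioRep1, and no member was called.

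Divided by the median of windows within 5 Mb that had no peak and no protein-coding name, the long regions stood a median of 10.1-fold higher, and 4 of the 10 highest windows stayed among the 10 highest. Those background windows were chosen for having no peak, so their lower level was set by the choice. Naming within 1000 bp gave 651 protein-coding windows in place of 515. No level here was set against an input.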

Other observations

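The share of promoter regions that were long is given by chromosome as a description, and differences between chromosomes were not tested. Chromosomes 19 and 20 are named as those with the highest and the lowest share. On chromosome 19, 74 of 340 promoter regions were long (21.8%, 95% Wilson interval 17.7 to 26.5), on chromosome 1 90 of 493 (18.3%, 15.1 to 21.9) and on chromosome 20 6 of 121 (4.96%, 2.29 to 10.4). Windows with no peak and no protein-coding name had a mean of 8.96 ± 0.626 CPM on chromosome 19, beside 8.58 ± 0.460 CPM over the autosomes outside the far end of chromosome 1. On chromosome 1 beyond 200 Mb, which holds B3GALNT2, DESI2, GUK1, IBA57 and H3-3A, 25 of 100 promoter regions were long (25.0%, 17.5 to 34.3), against 14.5% (13.4 to 15.6) elsewhere. The same kind of window in that segment held a mean of 12.1 ± 0.413 CPM, and the part of this higher background in the share of long regions was not tested.

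Some 1 Mb stretches held several long regions; they were chosen after their values were seen. Levels of windows with no peak and no protein-coding name are given beside them, as medians, against 7.70 CPM over the autosomes outside the far end of chromosome 1. Chromosome 19 from 48 to 49 Mb held 6 of 12 promoter regions, among them DBP, a circadian transcription factor gene, and RUVBL2, a helicase gene, with a background of 11.8 CPM. Chromosome 1 from 244 to 245 Mb held 5 of 6, among them DESI2, ADSS2, a purine synthesis gene, and COX20, with a background of 14.7 CPM. Chromosome 16 from 29 to 32 Mb held 8 of 34, and 3 of the 15 longest of all, FBRS, MAZ and MYL11, lay there, with a background of 9.30 CPM. Over the wider span of 5 Mb to each side, the same kind of window had lower medians. These were 6.88 CPM around DESI2, 4.29 CPM around FBRS, 4.73 CPM around MAZ and 4.34 CPM around MYL11, each below 7.70 CPM. The windows of these 4 genes stood 32.2, 33.4, 33.9 and 29.4 times above that local level, which by choice comes from windows without a peak. The part of background in these counts was not tested.

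A further 191 consensus regions of 500 bp or longer touched no TSS window, with a median length of 562 bp and a maximum of 1181 bp. In 91 of them (47.6%) a RefSeq gene start lay inside the region, and 52 had an annotated TSS within 1 kb of the midpoint. Windows stand at 1 annotated start per gene, so these regions were left out of the 630 although many held a gene start.

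Hairpins of 4 microRNAs lay inside or across long regions: MIR4738 beside UNK (776 bp), MIR3188 beside JUND (586 bp), MIR658 (527 bp) and MIR4674 (508 bp). The windows of MIR3188 and JUND held 57.5 ± 7.45 and 84.1 ± 8.84 CPM.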
